A study of Mus musculus with 6 samples.

Results

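The genes described here are 44 genes of the lysosome, named in a fixed list of hydrolases, cathepsins and other peptidases, lipid enzymes and membrane proteins. They are 44 of the 24346 gene names measured, and they were found by symbol. All 44 had a mean of at least 1 FPKM (fragments scaled to transcript length and library size), the level from which genes were tested, so none was lost to that filter. The study sequenced messenger RNA from the calvaria, the roof of the skull, of newborn mice. There were 3 control libraries, Pth1rfl/fl, with floxed alleles of the receptor for parathyroid hormone and its related protein. The other 3, labelled mutant, were Prx1-Cre;Pth1rfl/fl, which adds a Cre transgene known to act in limb and skull mesenchyme, so both groups carry the floxed alleles. Whether a library holds 1 animal or several is not stated in the labels. P-values therefore measure the spread between these libraries, which may be technical.

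The lysosome is the acidic compartment in which cells break down glycosaminoglycans, glycoproteins, proteins and lipids. Most of its soluble enzymes are tagged with mannose 6-phosphate in the Golgi and carried there by receptors, and the loss of single enzymes causes storage diseases, many of which deform the skeleton. In bone, the osteoclast releases lysosomal enzymes and acid onto the matrix, with cathepsin K as its main collagenase. Many lysosomal genes carry the CLEAR element, with CACGTG at its core, which the TFEB and MITF family of transcription factors bind.

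Pth1r, the targeted gene, had 89.2, 93.3 and 102 FPKM for controls, then 127, 125 and 142 FPKM for mutant-labelled libraries, so it was not lower where the labels place the deletion. Its log2 change did not pass (limma, Benjamini-Hochberg adjusted p = 0.065), and an exact two-sided permutation test of the means gave p = 0.1, the smallest p that 3 against 3 allows. A value over the whole gene can include exons that the deletion leaves in place, and directions are given as labelled. Pth1r also shares exon bases with Myl3 on the opposite strand, and whether counting used strand is not stated in the labels. Genes that define bone were abundant in all 6 libraries, with 9427 FPKM or more of Col1a1 and 96.5 FPKM or more of Sp7. Read totals are not in the sources used here. The steps of the lowest values put the libraries between 0.703 and 1.00 of the depth of control 1, with 0.778 and 0.703 for libraries 2 and 3 labelled mutant.

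The starts of these genes were examined because many lysosomal genes are known to share the CACGTG core. RefSeq promoter windows on GRCm38.p6, from 250 bases before to 50 bases after a start, matched 38 of the 44 genes. CACGTG, which reads the same on both strands, occurred in the windows of 12 of the 38 genes (31.6%), against 11.7% of the 9971 tested genes with a window and 8.09% of all 27025 genes with one. Each 26-base stretch below shows the copy nearest the start, 5′ to 3′ on the strand of the gene, with the core in capitals.
Arsa (chr15:89477425-89477450, minus strand): aactcagtgtCACGTGttgtctgctc
Gaa (chr11:119267813-119267838, plus strand): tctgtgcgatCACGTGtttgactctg
Gla (chrX:134601184-134601209, minus strand): agatctcggtCACGTGagcaactctc
Glb1 (chr9:114401020-114401045, plus strand): gcttctgagtCACGTGgcctacagag
Naglu (chr11:101070011-101070036, plus strand): accttcaggtCACGTGgcccgaggtc
Sgsh (chr11:119355524-119355549, minus strand): gcctgccgtgCACGTGaccgtgggga
Ctsa (chr2:164833768-164833793, plus strand): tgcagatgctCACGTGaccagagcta
Ctsd (chr7:142387910-142387935, minus strand): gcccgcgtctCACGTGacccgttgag
Ctsf (chr19:4855076-4855101, plus strand): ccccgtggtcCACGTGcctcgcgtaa
Ctsl (chr13:64370741-64370766, minus strand): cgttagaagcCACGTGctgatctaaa
Lgmn (chr12:102439126-102439151, minus strand): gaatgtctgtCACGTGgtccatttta
Lamp1 (chr8:13159136-13159161, plus strand): gtgaccacatCACGTGcggaacggag

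The Lamp1 window held 4 copies of the core, those of Ctsa, Ctsd and Gla 2 each, and the others 1. The longer TCACGTGA, which contains the core, was in the windows of Ctsa, Ctsd and Gla and in 2.2% of the tested genes. None of the 12 genes with the core passed the expression test described below.

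The 4 genes that did pass, Arsb, Hexa, Cd68 and Laptm5, had no CACGTG in their windows. Most of the 38 genes lacked the core, so its absence from 4 says little. A link between the core and the change was not tested. The 150 bases before the Cd68 start are shown because its window alone of the 4 held another of the motifs searched, in capitals.
Cd68 (chr11:69666171-69666320, minus strand): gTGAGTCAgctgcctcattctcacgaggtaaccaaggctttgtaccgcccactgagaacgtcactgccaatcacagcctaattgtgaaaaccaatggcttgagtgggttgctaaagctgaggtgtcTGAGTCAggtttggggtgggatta

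The capitals in the Cd68 stretch mark 2 copies of TGAGTCA, the letters that AP-1 factors such as Fos and Jun bind, beginning 149 and 24 bases before the start. These letters or their reverse complement TGACTCA were also in the windows of Glb1, Neu1 and Psap, 4 of 38 genes, and in 4.47% of the tested genes. GAGGAAGT, bound by the myeloid factor PU.1, was in the windows of Ctsc, Ctss, Gla and Gusb, against 3.47% of the tested genes. TCATGTG, another form bound by MITF, was in those of Ctsa, Ctss, Gla, Ppt1, Scarb2 and Tpp1, against 2.56%. Both strands were searched, and a match of letters is a description of the window, not of binding.

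Of the 44 genes, 4 rose in the mutant-labelled libraries and 0 fell in limma (Benjamini-Hochberg) over all 13180 tested genes at 0.05. The background over all tested genes was 0.524% for rises, 0.0835% for falls and 0.607% for either. With limma's array weights, which weight libraries by their spread, 8 of the 44 rose, the others being Ctsz, Glb1, Gusb and Lgmn. Under these weights 152 of all 13180 tested genes rose, against 69 without them. At an unadjusted p under 0.05, 18 of the 44 were higher and 1 was lower, where 5.91% and 4.62% of all tested genes were. The mean was higher for 34 genes and lower for 10, while 50.5% of all tested genes were higher. The median log2 change of FPKM + 1 was 0.11, beside 0.00147 over all tested genes. The range ran from -0.16 for Gaa to 1.00 for Arsb, with quartiles of 0.0084 and 0.25. Over all tested genes the quartiles were -0.082 and 0.078.

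The groups did not overlap for 21 of the genes. In 20 of these every mutant-labelled library lay above every control, and in 1, Smpd1, every one lay below. Over all tested genes these shares were 9.34% and 6.79%. The lysosomal genes also varied less between libraries of a group. Their median coefficient of variation was 4.73% in controls and 4.13% in the mutant-labelled libraries, against 8.13% and 7.82% over all tested genes. Their median level was also higher, 30.8 FPKM against 10.3 FPKM over all tested genes. Variation was not compared among genes of like level, so the difference may reflect level.

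**Figure D1:**
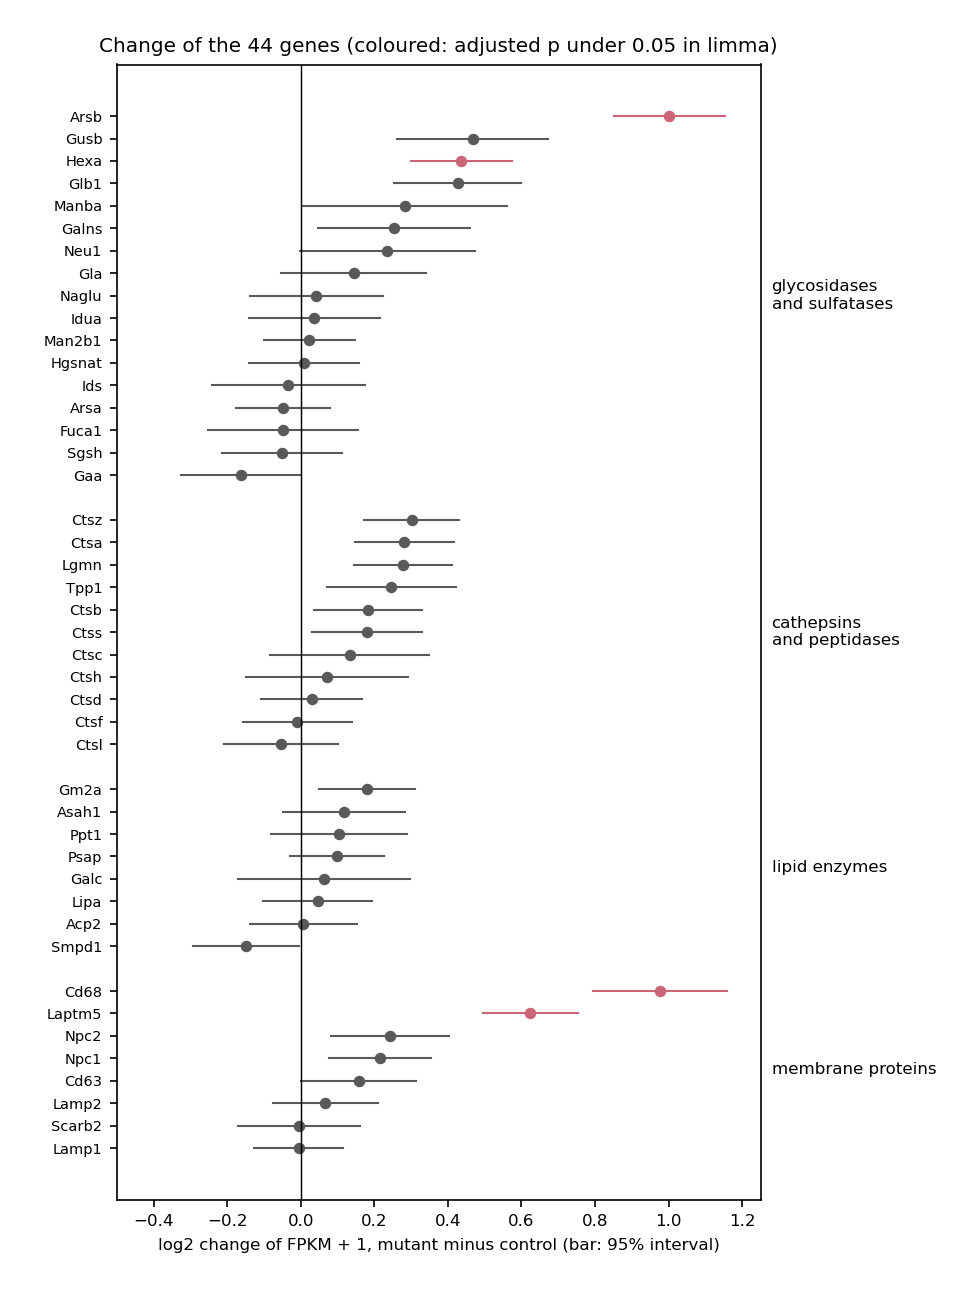
Log2 change of FPKM + 1 (x axis, mutant-labelled libraries minus controls, n = 3 each) for each of the 44 genes, ordered within 4 role groups; points are limma estimates, bars 95% intervals, and coloured genes passed at an adjusted p of 0.05. Arsb, Hexa, Cd68 and Laptm5 are coloured, and all other points lie between -0.16 and 0.47.

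Markers of several cell types differed between the groups. In the osteoclast list, 8 of 11 markers rose, and their summed level was 617 to 690 FPKM in controls and 1654 to 1800 FPKM in the mutant-labelled libraries. In the macrophage list, 1 of 13 rose, Csf1r, with 3 higher and 0 lower at an unadjusted p under 0.05, and the sums were 379.7 to 439.6 and 439.9 to 473.1 FPKM. In the neutrophil list, none of the 6 tested markers passed in limma, while 3 were higher at an unadjusted p under 0.05, and the sums were 42.7 to 58.3 and 52.6 to 105 FPKM. Of 9 cartilage markers 2 fell, Matn1 and Col9a3, with sums of 847 to 1852 and 350 to 487 FPKM. At an unadjusted p under 0.05 in limma, 7 of the 9 were lower and 0 were higher. In the osteoblast list 1 of 8 rose, Ibsp at a ratio of 1.93. At an unadjusted p under 0.05 in limma, 5 osteoblast markers were higher and 1, Bglap at a ratio of 0.381, was lower. Col1a1 and Sp7 had ratios of 1.05 and 1.08. In the blood vessel list 1 of 6 rose, Emcn at 1.31, with vessel sums of 176 to 183 and 207 to 211 FPKM. None of 6 mast cell markers passed in limma (0 higher and 1 lower at an unadjusted p under 0.05), although all 6 had a lower mean and the sums were 362 to 394 and 325 to 341 FPKM. Of the 2 tested lymphocyte markers 1 had a higher and 1 a lower mean, and neither passed. No marker of these lists was at 0 in all libraries, and the part of any of these cell types in the values of the lysosomal genes was not tested. In bulk tissue, more cells of a type and more RNA of a gene per cell cannot be told apart.

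The glycosidases and sulfatases, which take sugars and sulfate groups off glycans, included 2 of the rises among 17 genes. Arsb encodes arylsulfatase B, which removes sulfate from dermatan sulfate and chondroitin 4-sulfate. It had 20.9, 22.6 and 23.8 FPKM across controls against 44.6, 45.9 and 46.9 in mutant-labelled libraries. Every mutant-labelled library was well above every control. The means were 22.4 ± 1.46 and 45.8 ± 1.18 FPKM (SD, n = 3 each), a ratio of 2.05. The log2 change of 1.00 ± 0.06 (SE) had an adjusted p of 0.0017 by limma (Benjamini-Hochberg), the 8th smallest p of all tested genes. Arsb passed in all 17 other settings tried.

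Hexa encodes the alpha subunit of beta-hexosaminidase, which cleaves terminal hexosamines from gangliosides and glycosaminoglycans. Its values were 86.6, 94.05 and 91.2 FPKM for controls, then 123, 119 and 127 FPKM for mutant-labelled libraries. All 3 of the latter were higher, by a ratio of means of 1.36. The log2 change of 0.44 ± 0.06 (SE) had an adjusted p of 0.0328 (limma, Benjamini-Hochberg). That call ended when any 1 of the 6 libraries was left out (adjusted p from 0.08 to 0.161).

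Gusb and Glb1 came close without passing. Gusb, beta-glucuronidase, had 31.04, 31.1 and 31.9 FPKM across controls against 47.02, 38.2 and 46.5 in mutant-labelled libraries, where library 2 was lower than the others. Its log2 change of 0.47 had an adjusted p of 0.0936 by limma (Benjamini-Hochberg), and of 0.0343 without library 2. Glb1, the lysosomal beta-galactosidase, had 27.2, 29.7 and 27.7 FPKM for controls, then 36.6, 36.5 and 41.8 FPKM for mutant-labelled libraries (log2 change 0.43, limma adjusted p = 0.0709). Glb1 shares exon bases with Tmppe on the same strand, so some of its fragments may have been assigned between the pair.

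The other enzymes of glycosaminoglycan breakdown among the 44 did not pass. Galns, which removes 6-sulfate from chondroitin and keratan sulfate, had 9.52 ± 0.33 and 11.6 ± 1.29 FPKM (SD, n = 3 each) without overlap, a ratio of 1.22. Of the enzymes that act on heparan sulfate, Naglu had a ratio of 1.03, Sgsh 0.958 and Hgsnat 1.01. Their 95% intervals of the log2 change were -0.14 to 0.22, -0.21 to 0.11 and -0.14 to 0.16. Ids and Idua, which act on dermatan and heparan sulfate alike, had ratios of 0.971 and 1.03.

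Arsa, the sulfatase of sulfatide, overlapped between groups, with 19.9, 20.7 and 19.8 FPKM across controls against 19.5, 18.9 and 19.98 in mutant-labelled libraries. Its 95% interval was -0.18 to 0.08 on the log2 scale, while that of Arsb, described because it passed, was 0.85 to 1.15. Arsa and Arsb were not tested against each other. Gaa, the acid glucosidase that degrades glycogen, had the largest fall in mean, from 81.6 ± 5.01 to 72.8 ± 3.80 FPKM (SD, n = 3 each), which did not pass (limma adjusted p = 0.477) and overlapped between groups. The glycoprotein enzymes Manba, Neu1, Man2b1 and Fuca1 had ratios of 1.24, 1.20, 1.02 and 0.969. Gla, the alpha-galactosidase, was the least abundant of the 44 genes at 3.08 and 3.51 FPKM.

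**Figure D2:**
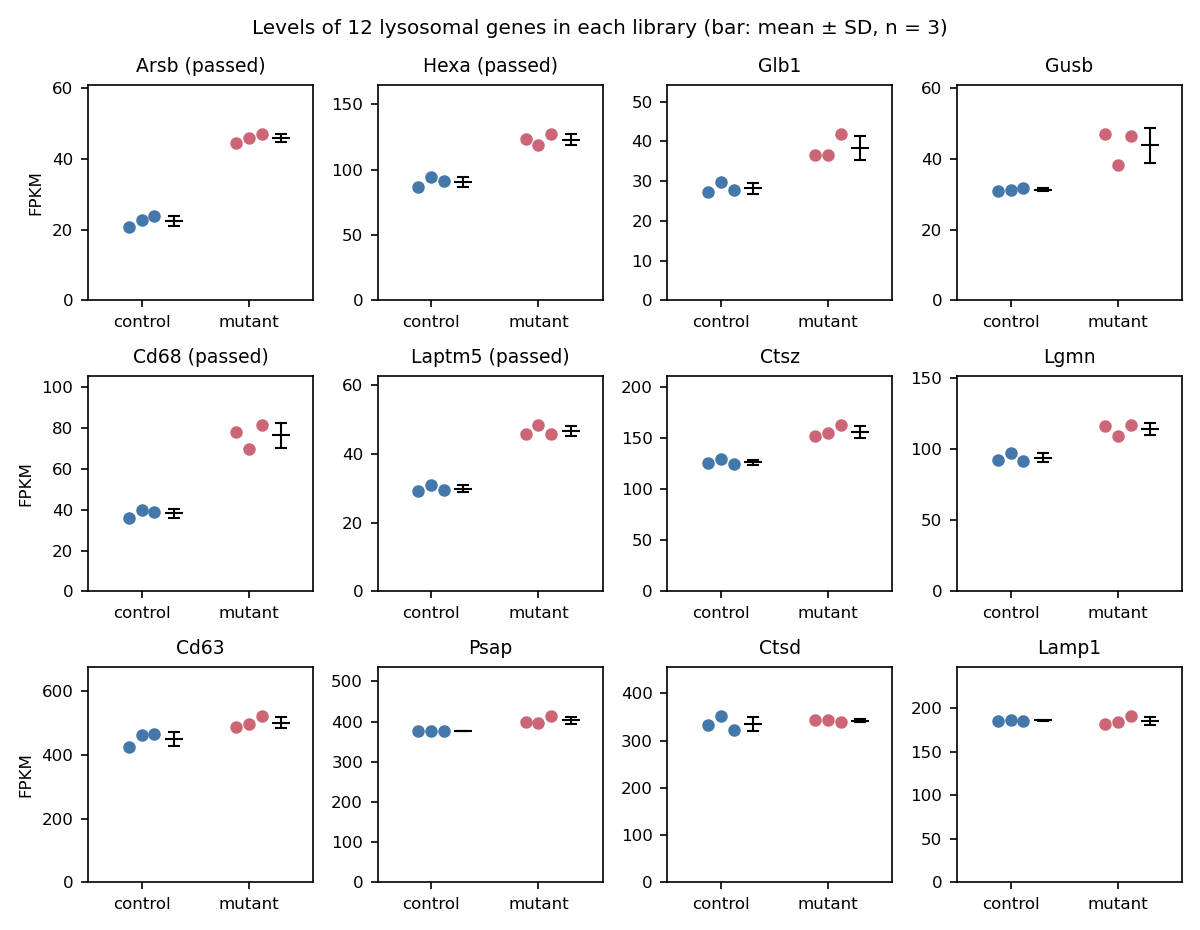
FPKM (y axis, from 0) in each control library and each mutant-labelled library for 12 genes; points are libraries, and bars at the side give mean ± SD (n = 3). Arsb and Cd68 rise most, with ratios of 2.05 and 1.99, Laptm5 and Hexa less, and Ctsd and Lamp1 overlap between groups.

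Among the 11 cathepsins and other peptidases 0 passed in limma, although 6 were higher at an unadjusted p under 0.05 and 0 were lower. The nearest was Ctsz, a cysteine carboxypeptidase, with 125, 130 and 125 FPKM for controls, then 152, 155 and 163 FPKM for mutant-labelled libraries. Its ratio was 1.23 (log2 change 0.30 ± 0.05 SE, adjusted p = 0.0888 by limma (Benjamini-Hochberg)). Lgmn, legumain, which cleaves after asparagine and activates cathepsins, had 92.5, 97.35 and 91.4 FPKM across controls against 116, 109 and 117 in mutant-labelled libraries. Ctsa, the protective protein that binds beta-galactosidase and neuraminidase, had 69.4, 68.7 and 71.1 FPKM for controls, then 81.7, 83.7 and 89.7 FPKM for mutant-labelled libraries. For each of these 3 genes the groups did not overlap, and the adjusted p was 0.11 for both Lgmn and Ctsa. Ctsz, Ctsa and also Ctsb share exon bases with genes on the opposite strand, and whether counting used strand is not stated in the labels.

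Ctsz, Ctsl and Ctsb lay close in level, at 141, 144 and 139 FPKM over all libraries, but had log2 changes of 0.30, -0.05 and 0.18. Whether level ordered change over the 11 genes of the group was not tested. Ctsd, the most abundant of the group and the main aspartic protease of lysosomes, had 332, 351 and 322 FPKM across controls against 343, 344 and 338 in mutant-labelled libraries. All 3 of the latter lay within the control range, and the 95% interval of the log2 change was -0.11 to 0.17. Ctsl had 147 ± 8.49 and 142 ± 5.64 FPKM, and Ctsb 130 ± 6.60 and 148 ± 5.23 FPKM (SD, n = 3 each), with ratios of 0.963 and 1.14. Ctss, a cathepsin of antigen-presenting cells, had 22.6 ± 1.34 and 25.7 ± 0.76 FPKM (SD, n = 3 each), and the groups did not overlap. Tpp1, a tripeptidase, had a ratio of 1.19, and Ctsc, Ctsh and Ctsf had 1.10, 1.05 and 0.993.

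Ctsk, the osteoclast's cathepsin and not among the 44, gives the scale of these differences. It had 352, 346 and 355 FPKM in controls, a level like that of Ctsd, and 780, 731 and 813 FPKM in the mutant-labelled libraries. The 95% interval of the log2 change of Ctsk was 0.99 to 1.29, whereas the upper ends for Ctsd, Ctsl, Ctsb and Ctsz were 0.17, 0.10, 0.33 and 0.43.

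The lipid enzymes and their helpers showed the smallest spread of changes, from -0.15 to 0.18 on the log2 scale, and 0 of 8 passed in limma (1 higher and 1 lower at an unadjusted p under 0.05). Psap, the precursor of the saposins that present lipids to hydrolases, was nearly equal in the controls, at 376, 377 and 377 FPKM. It had 400, 396 and 413 FPKM in the mutant-labelled libraries, a ratio of 1.07 without overlap (log2 change 0.10, limma adjusted p = 0.615). Gm2a, the activator that lifts the ganglioside GM2 to beta-hexosaminidase, had 13.7, 14.4 and 14.4 FPKM for controls, then 16.0, 15.9 and 16.6 FPKM for mutant-labelled libraries. Its ratio of 1.14 did not pass (limma adjusted p = 0.276), beside the ratio of 1.36 for Hexa.

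Smpd1, acid sphingomyelinase, was the gene whose groups parted downward, with 27.8, 29.7 and 31.1 FPKM across controls against 26.1, 27.3 and 26.04 in mutant-labelled libraries. The highest mutant-labelled library was just under the lowest control, and the change of -0.15 on the log2 scale did not pass (limma adjusted p = 0.457). Asah1, Ppt1, Galc and Lipa, which act on ceramide, lipid thioesters, galactosylceramide and cholesteryl esters, had ratios of 1.08, 1.08, 1.06 and 1.03. Acp2, the lysosomal acid phosphatase placed in this group, had 1.01, although another acid phosphatase, Acp5 of osteoclasts, had a ratio of 3.12.

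The membrane proteins, with the cholesterol carrier Npc2 counted among them, held the other 2 rises among 8 genes. Cd68 encodes a heavily glycosylated protein of lysosomes and late endosomes in macrophages and osteoclasts. It had 35.8, 39.9 and 39.1 FPKM for controls, then 78.1, 69.7 and 81.2 FPKM for mutant-labelled libraries. Library 2 was the lowest of the latter and still well above every control, and the ratio of means was 1.99. The log2 change of 0.98 ± 0.08 (SE) had an adjusted p of 0.0042 by limma (Benjamini-Hochberg) and passed in all 17 other settings.

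Laptm5, a transmembrane protein of lysosomes in blood-derived cells, had 29.3, 31.03 and 29.4 FPKM across controls against 45.7, 48.3 and 45.9 in mutant-labelled libraries. Within each group the libraries were close together, and the ratio was 1.56. The log2 change of 0.62 ± 0.05 (SE) had an adjusted p of 0.0066 (limma, Benjamini-Hochberg), which became 0.0586 without library 1 labelled mutant. Of the blood-derived lists given above, the osteoclast list had 8 of 11 markers called higher and the macrophage list 1 of 13, against 0.524% of all tested genes. The neutrophil and mast cell lists had 0 of 6 each, the lymphocyte list 0 of 2 and the red cell list 0 of 5. By mean, 11 of the 13 macrophage markers were higher and 2 lower, and 3 were higher and 0 lower at an unadjusted p under 0.05 in limma. The part of these cell types in the values of Cd68 and Laptm5 was not tested.

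Lamp1 and Lamp2, the major glycoproteins of the lysosomal membrane in all cells, gave little difference. Lamp1 had 186, 187 and 186 FPKM for controls, then 182, 184 and 191 FPKM for mutant-labelled libraries. Its 95% interval of the log2 change was -0.13 to 0.12, while that of Cd68, described because it passed, was 0.79 to 1.16. No test compared these genes with each other, and Lamp1 shares exon bases with Grtp1 on the opposite strand. Lamp2 had a ratio of 1.05, and Scarb2, the receptor that carries glucocerebrosidase, 0.998.

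Cd63, a tetraspanin of late endosomes and the most abundant of the 44 genes, had 422, 461 and 463 FPKM across controls against 485, 497 and 520 in mutant-labelled libraries. The groups did not overlap, and the log2 change of 0.16 did not pass (limma adjusted p = 0.469). Npc1 and Npc2, which pass cholesterol out of the lysosome, both parted upward, Npc1 from 11.9 ± 0.44 to 13.97 ± 0.43 FPKM and Npc2 from 73.3 ± 0.93 to 87.06 ± 6.67 FPKM (SD, n = 3 each). Their ratios were 1.17 and 1.19, and neither passed in limma (adjusted p = 0.233 and 0.237).

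**Figure D3:**
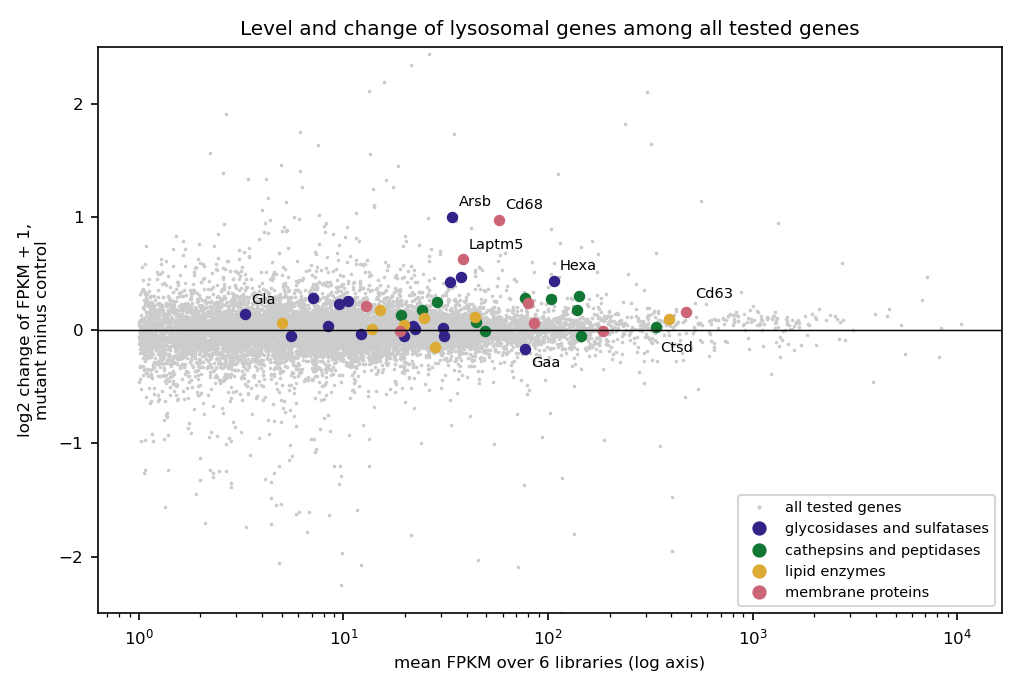
Mean FPKM over the 6 libraries (x axis, log scale) against the log2 change of FPKM + 1 (y axis, mutant-labelled libraries minus controls) for all tested genes in grey and the 44 lysosomal genes by role group; 24 genes lie beyond the y axis. The 3 most abundant of the 44, Cd63, Psap and Ctsd, lie near 0, and Arsb and Cd68 are the highest points of the 44.

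The summed level of the 44 genes was 2862, 2952 and 2919 FPKM for controls, then 3203, 3180 and 3334 FPKM for mutant-labelled libraries. The ratio of the means was 1.11, and without the 4 genes that rose it was 1.08. By role the ratio was 1.17 for glycosidases and sulfatases, 1.14 for membrane proteins, 1.09 for cathepsins and peptidases and 1.06 for lipid enzymes, beside 1.04 for the summed FPKM of all tested genes. As a share of all summed FPKM, the 44 genes took 0.526%, 0.566% and 0.558% in controls and 0.587%, 0.568% and 0.613% in the mutant-labelled libraries. All summed FPKM include the red cell list, which took 1.906%, 1.715% and 2.563% in controls and 4.298%, 4.067% and 0.9263% in the mutant-labelled libraries. For the 44 genes, shares are also given by role. By role these shares overlapped between groups for cathepsins and peptidases, 0.193% to 0.209% and 0.206% to 0.216%, and for lipid enzymes, 0.0953% to 0.102% and 0.0975% to 0.105%. They did not overlap for glycosidases and sulfatases, 0.0783% to 0.0851% and 0.0862% to 0.0985%, or for membrane proteins, 0.159% to 0.174% and 0.179% to 0.193%. The 4 genes that rose all belong to these last groups, Arsb and Hexa to the former and Cd68 and Laptm5 to the latter. Shares by role without them were not computed, so this separation is not shown for the remaining genes of either group.

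Other genes of the pathway, in 5 further lists, mostly had small changes, with 3 rises and 0 falls among 86 tested genes (limma) and a median log2 change of 0.05. At an unadjusted p under 0.05, 12 of the 86 were higher and 1 was lower. Slc37a2, a sugar-phosphate transporter found in osteoclast lysosomes, rose most, from 8.03, 9.43 and 9.04 FPKM in controls to 23.3, 24.03 and 23.5 FPKM in the mutant-labelled libraries. The ratio was 2.67 (log2 change 1.33 ± 0.07 SE, adjusted p = 0.0011, limma, Benjamini-Hochberg), and it was the 1 rise among 24 other lysosomal membrane genes. The next smallest p values there were those of Gpnmb and Abca2, at ratios of 1.42 and 0.799, and the most abundant, Laptm4a and Cd164, had 0.968 and 1.02.

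Among 27 other lysosomal enzymes, 2 rose and 0 fell in limma, with 5 higher and 1 lower at an unadjusted p under 0.05. Ifi30, a thiol reductase of antigen-presenting cells, had 65.5, 69.3 and 63.05 FPKM across controls against 95.5, 96.7 and 111 in mutant-labelled libraries (ratio 1.53, adjusted p = 0.0258, limma, Benjamini-Hochberg). Hyal1, a hyaluronidase that also cleaves chondroitin, had 5.79, 6.11 and 5.93 FPKM for controls, then 9.01, 8.43 and 8.35 FPKM for mutant-labelled libraries (ratio 1.45, adjusted p = 0.0336). Neither gene overlapped between groups. Rnaset2b, a ribonuclease, had a ratio of 0.714 without passing (limma adjusted p = 0.0993). The median log2 change of this list was -0.02, beside 0.11 for the 44 genes.

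The carriers and tagging enzymes that bring hydrolases to lysosomes gave 0 calls among 15 genes in limma (3 higher and 0 lower at an unadjusted p under 0.05). All 15 had a higher mean as the values were deposited, with a median log2 change of only 0.07. Gnptab, the enzyme that starts the mannose 6-phosphate tag, had a ratio of 1.21, and the receptors Igf2r and M6pr had 1.13 and 1.12.

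The 13 regulators of lysosome biogenesis also gave 0 calls in limma (1 higher and 0 lower at an unadjusted p under 0.05). Tfeb, the factor best known for inducing lysosomal genes, had 12.9, 13.5 and 11.4 FPKM across controls against 11.4, 12.4 and 10.2 in mutant-labelled libraries, with overlap. Mitf and Tfec, relatives expressed in osteoclasts, were low, with 2.04 ± 0.18 and 2.60 ± 0.50 FPKM for Mitf and 1.39 ± 0.59 and 2.58 ± 0.75 FPKM for Tfec (SD, n = 3 each). The most abundant were Rraga and Rragc, GTPases that recruit mTORC1 to lysosomes, at ratios of 0.936 and 0.985.

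Of 7 tested protease inhibitors 0 passed in limma (1 higher and 0 lower at an unadjusted p under 0.05). Cstb, an inhibitor of cysteine cathepsins inside cells, had 92.5, 88.9 and 83.7 FPKM for controls, then 132, 111 and 114 FPKM for mutant-labelled libraries (ratio 1.35, limma adjusted p = 0.106). Cst3, the secreted cystatin C, was the most abundant at 532 ± 21.6 and 551 ± 16.7 FPKM (SD, n = 3 each). Serpinb9 had a lower mean, at a ratio of 0.712 with overlap between groups (limma adjusted p = 0.513), and Serpinb6a had a ratio of 1.05.

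**Figure D4:**
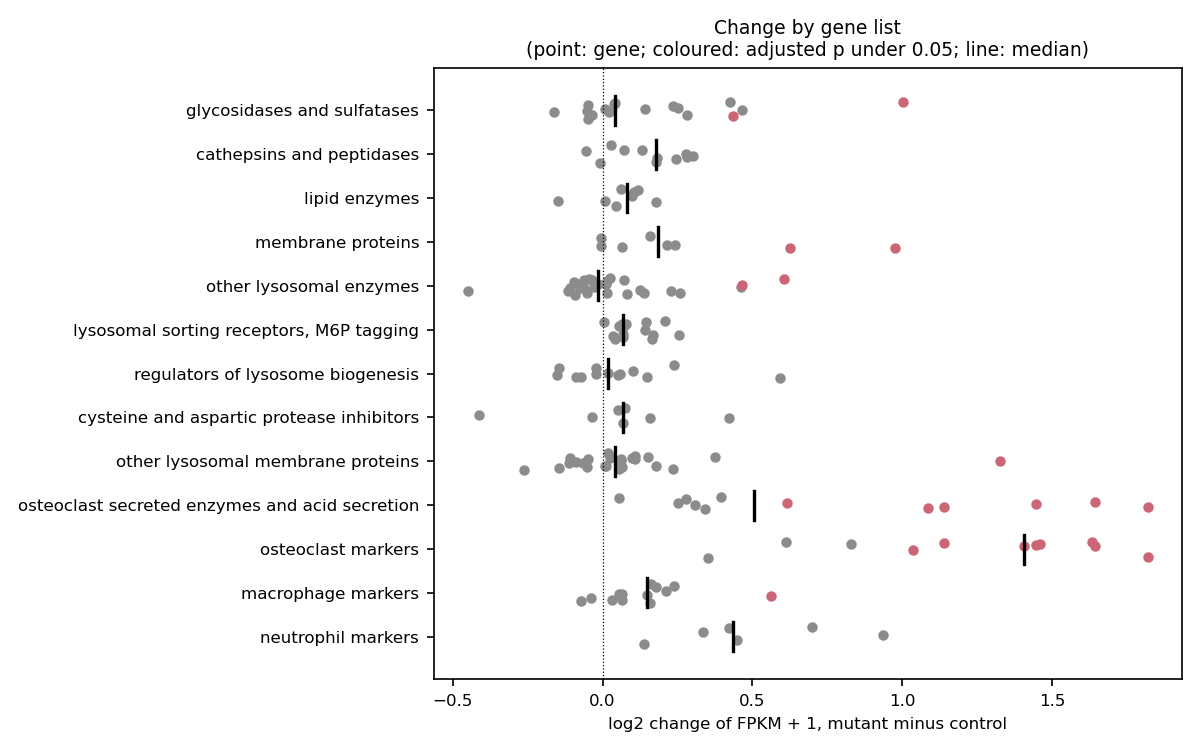
Log2 change of FPKM + 1 (x axis, mutant-labelled libraries minus controls) of each tested gene in the 4 role groups, 6 further pathway lists and 3 lists of cell markers; coloured points passed at an adjusted p of 0.05 and vertical lines are medians. Medians of the lysosomal lists lie between -0.02 and 0.19, that of osteoclast secreted enzymes at 0.50 and that of osteoclast markers at 1.41. Acp5, Ctsk, Mmp9 and Atp6v0d2 are in both osteoclast lists.

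The enzymes and acid-secreting proteins of the osteoclast, known to act with lysosomal membrane at the resorbing surface, formed the list with the larger changes. Of these 12 genes 6 rose, Acp5, Ctsk, Mmp9, Atp6v0d2, Tcirg1 and Snx10, and 0 fell in limma (10 higher and 0 lower at an unadjusted p under 0.05). Acp5, Ctsk, Mmp9 and Atp6v0d2 are also among the osteoclast markers given above, so these lists are not independent of each other. The list of 12 was chosen with its rise in these libraries known, so its count is not independent evidence of the direction. Snx10, a sorting nexin of endosomes and lysosomes, had 8.79, 8.21 and 9.16 FPKM across controls against 21.1, 17.8 and 20.04 in mutant-labelled libraries, a ratio of 2.25. The chloride exchanger gene Clcn7 and its partner Ostm1, which sit in the lysosomal membrane and were picked after their values were seen, had 15.9 ± 1.05 and 20.4 ± 0.89 FPKM for Clcn7 and 6.18 ± 0.24 and 8.48 ± 1.14 FPKM for Ostm1 (SD, n = 3 each) and did not pass (limma adjusted p = 0.109 and 0.191). Side by side, the medians of the log2 change were 0.50 for these 12 genes and 0.11 for the 44, and Arsb and Cd68 were the 2 of the 44 above 0.9.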

How the data were processed

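Messenger RNA from newborn calvaria was prepared with a stranded kit, per the labels' protocols. The authors deposited FPKM. The submitters' processing notes list, with no order or role, Cufflinks 2.2.1, SAMtools 0.1.19, TopHat2 2.0.13 and Bowtie2 2.2.3, and the build mm10. Their options, annotation and read totals are not in the sources used here. Groups and replicate numbers were read from the titles. FPKM are not counts, so limma 3.58.1 (R 4.3.3) was fitted to log2(FPKM + 1) for the 13180 genes averaging at least 1 FPKM, with group as the 1 term, eBayes with trend, two-sided p and Benjamini-Hochberg adjustment. This scale understates changes of low genes, and ratios are of mean FPKM. The script was tested on simulated data.

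The 44 genes, the other lists and the settings were chosen with earlier results of these data known. Any of the 44 could be named. Values per library were due for those past the threshold, the 3 most abundant, the 3 with the smallest p in each role group and the largest fall. From the other lists, the rule named those past the threshold, the 3 with the smallest p and the 2 most abundant. Role groups were assigned by hand. GENCODE M21 (GRCm38, the same assembly as mm10) gave exon overlaps, and 9 of the 44 genes share exon bases with another tested gene. These are Glb1, on the same strand, and Idua, Sgsh, Ctsa, Ctsb, Ctsz, Ppt1, Acp2 and Lamp1, on the opposite strand. Promoter windows are from RefSeq (GRCm38.p6).

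Other settings changed the pseudocount (0.1), the filter (none, or 5 FPKM), the scaling (median of ratios, or quantile), the variance model (no trend, or robust), the library weights, the terms (a replicate block, or sex read from Xist and Y-linked genes) and the genes (no short RNA). Each library was also left out in turn. Xist was higher than the Y-linked genes in 2 controls and 1 mutant-labelled library. The Y-linked genes were higher in 1 control and 2 mutant-labelled libraries, so sex read this way was not balanced between the groups.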

Additional observations from a re-analysis of the deposited data

How the results depend on the processing

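Of the 44 genes, 4 rose as reported and 8 with array weights, which added Ctsz, Glb1, Gusb and Lgmn, while 0 fell in any of the 17 other settings. Leaving out 1 library gave 2 to 4 rises, the fewest without mutant 1, where Hexa and Laptm5 were lost, and Gusb was added without mutant 2. Hexa was also lost with no trend, the replicate block and the sex term, and its cause was not tested. With array weights the log2 change of Pth1r was 0.4048 and passed (limma adjusted p = 0.0458). Same-numbered libraries did not deviate together (correlations of 0.016, -0.071 and 0.015), so the numbers were not taken as pairs. The replicate block gave 3 rises among the 44, and 23 rises and 2 falls over all genes against 69 and 11. Over all genes the counts were 152 and 31 with array weights, 41 and 2 with the sex term, 44 and 6 with no filter, 82 and 17 without short RNA genes, and 14 to 34 and 1 to 12 with 1 library left out. Direction changed for 13 of the 44 genes, all with small changes. The log2 change became 0.006477 for Ids and -0.000727 for Hgsnat with the sex term, -0.003711 for Ctsd with quantile normalization and 0.04534 for Ctsf with array weights. With 1 library left out it spanned -0.01303 to 0.1006 for Idua, -0.1242 to 0.02974 for Ids, -0.03121 to 0.09502 for Naglu, -0.02865 to 0.0483 for Hgsnat, -0.004183 to 0.03752 for Man2b1, -0.135 to 0.01107 for Fuca1, -0.0507 to 0.02287 for Ctsf, -0.01511 to 0.1449 for Ctsh, -0.004724 to 0.1368 for Galc, -0.02908 to 0.04363 for Acp2, -0.02603 to 0.009294 for Lamp1, -0.06491 to 0.03554 for Scarb2. The cause was not tested. Gla was not tested at the filter of 5 FPKM. Depth is known in relative terms only, so no counting error can be given, and 3 libraries a group limit the precision.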
